A study of Mus musculus with 24 samples.

Results

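The 3' untranslated region (3' UTR) of Hif1a, as bound by Argonaute 2 (AGO2) in activated CD4+ T cells with and without miR-155, is described here through its 24 AGO2 peaks, of 14634 peaks in 4165 genes in the authors' deposited table. The members are all rows of that table with the symbol Hif1a. The gene was chosen by its read total and its lowered peak, both already known, so its reads and ratios are given as a description. The miR-155 knockout group (C57BL/6 mice, 12 libraries) and the wild-type group (C57BL/6 mice, 12 libraries) were compared by HITS-CLIP, in which AGO2 is immunoprecipitated with the RNA it holds, here after limited RNase digestion, and that RNA is sequenced. In both groups CD4+ cells of spleen and lymph nodes were isolated on beads and activated for 4 days by CD3 and CD28 antibodies at 1 µg/mL, with 20 U/mL of IL-2. In each genotype 6 libraries carried 3' linker 1 and 6 carried 3' linker 2. Linker and genotype are crossed between the first and the last replicate numbers, but within either set they cannot be told apart, and the pooled table does not separate the sets. Replicates are labelled biological, and the labels do not say how many mice each library drew on.

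Hif1a encodes the oxygen-regulated alpha subunit of the transcription factor HIF-1. In the presence of oxygen, prolyl hydroxylases mark the protein for the VHL ubiquitin ligase; when it escapes, it pairs with ARNT and switches on genes of glycolysis and of the response to low oxygen. In T cells the factor is also induced by antigen receptor and mTOR signalling and is known for its part in glycolytic and Th17 programmes. MicroRNAs guide AGO2 to 3' UTRs mainly by pairing of their seed, bases 2 to 8, and miR-155 is a microRNA that lymphocytes induce on activation.

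All 24 peak sequences were found on transcript ENSMUST00000021530.7 of GENCODE M21 (gene ENSMUSG00000021109.13), in exon 15 of 15. Its 3' UTR runs for 1827 nt after the stop codon, at chr12:73945704-73947530 on the plus strand of GRCm38. The files' own alignment was to mm9, so these positions are matches of sequence and not converted coordinates. The annotation also places Gm15283 on the opposite strand and Gm49321 on the same strand over this stretch, and reads of these genes cannot be told apart from those of Hif1a where counting by strand is not stated.

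The following sequences are shown because the results turn on them. They give miR-155, whose RefSeq entry (GRCm38.p6) is printed with its seed in capitals, and the places in 4 Hif1a peaks that hold a seed match (in the peak or its 6-nt flanks) or 7 of the 8 letters of the full site, read 5′ to 3′ on the plus strand. In the first line for peak 4, capitals mark the bases paired with miR-155 in the predicted duplex. In the second line for peak 4 and in those for peaks 18 and 5, capitals mark the seed match; in the line for peak 8, capitals mark the matching letters of the full 8-nt site.
miR-155-5p: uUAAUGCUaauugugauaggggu
peak 4, duplex, chr12:73945888-73945912: CCCCTtTCtACttAATTttCATTAA
peak 4, 6mer-A1, chr12:73945893-73945917: ttctacttaattttCATTAAtgctc
peak 18, 7mer-m8, chr12:73946725-73946750: tgagtaattttagaAGCATTAtttta
peak 5, offset 6mer, chr12:73945954-73945978: attcacagctcctcAGCATTtcacc
peak 8, chr12:73946080-73946105: taattttttaagaaAGCAgTAAattc

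All read numbers are the authors' pooled and scaled reads for a genotype, obtained by reversing the log2(1 + reads) of the authors' deposited table, so no value per library and no replicate error exist. Ratios are the deposited log2 ratios, wild type over knockout, so a positive ratio means fewer reads in the knockout. Adjusted p-values are the authors' p-values after Benjamini-Hochberg adjustment over all 14634 peaks, with a threshold of 0.05. Without the depth of single libraries there is no counting interval. Fewer cells of a type and less RNA per cell cannot be told apart in such samples. Over all peaks the reads summed to 374126 in the knockout against 371088 in wild type. As a check of the cell type, 5 of 7 CD4+ T cell markers had peaks (Cd4, Cd3e, Cd28, Il2ra and Icos), with 5831 scaled reads in the knockout against 4046 in wild type in sum. Of this sum, Il2ra alone held 3293 in the knockout against 1934 in wild type, so the sum gives no direction shared by the 5 markers. None of 4 B cell, 4 myeloid, 4 CD8 and NK, and 3 erythroid markers had a peak, which describes AGO2 contact and not expression.

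AGO2 covered much of the Hif1a 3' UTR, and 1 position took most of its reads. The peaks held 4746.9 scaled reads in the knockout against 4284.7 in wild type in sum (log2 ratio of the sums, wild type over knockout, -0.15). They covered 871 nt, or 47.7% of the 3' UTR, with widths of 24 to 56 nt (median 34, against 39 over all peaks). Most peaks followed each other closely, with gaps of at least 5 nt and a median of 20 nt, and peak 24 stood apart after a gap of 307 nt. The peaks were poor in G and C, with a median of 30.6% against 36.8% over all peaks; the 3' UTR as a whole had 31.7%.

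**Figure D1:**
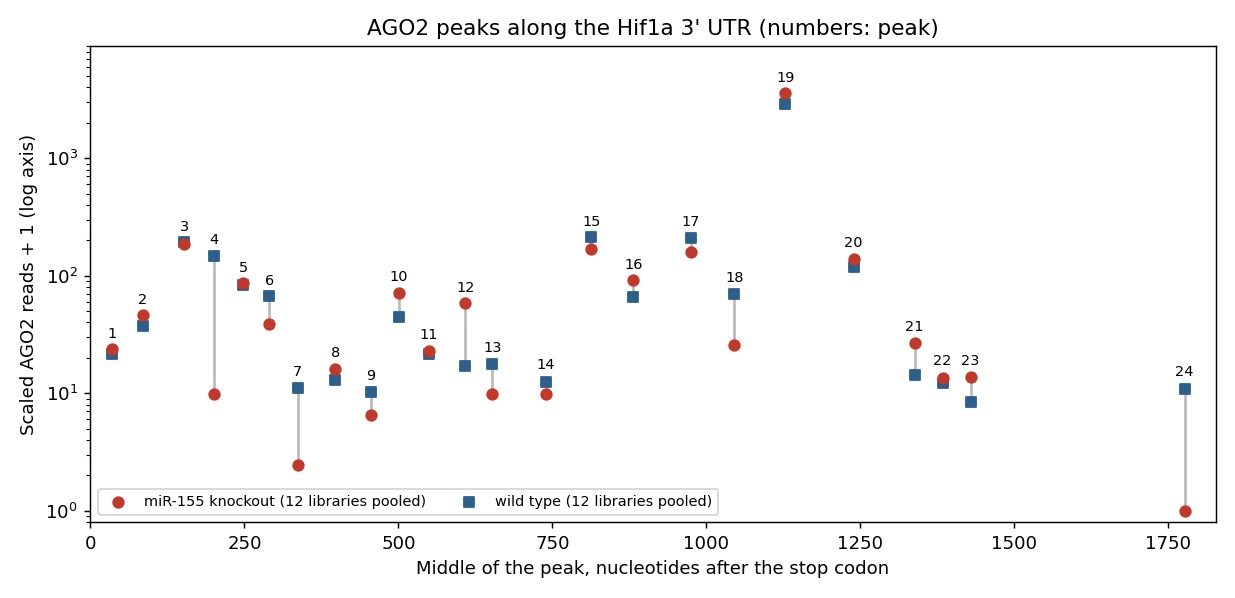
Scaled AGO2 reads plus 1 (log axis) at each of the 24 Hif1a peaks, against the distance of the peak's middle from the stop codon in nucleotides; red circles are the pooled knockout libraries and blue squares the pooled wild-type libraries. The circle of peak 4 (8.85 reads) lies far below its square (146 reads), while its neighbours, peaks 3 and 5, have nearly coinciding symbols.

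Peak 19, at positions 1113 to 1144 of the 3' UTR, was the dominant contact. It held 3545 scaled reads in the knockout against 2889 in wild type (log2 ratio -0.30, adjusted p = 1.00). This was 74.7% of the gene's reads in the knockout against 67.4% in wild type. Per nucleotide of peak width, with 201 reads per nt over both genotypes, it ranked 3 of all 14634 peaks. A single peak held this large a share in few genes with many peaks. Among the 131 genes with 15 or more peaks, the median share of the most-read peak was 28.6%, and 3 genes, Hif1a included, reached at least its 71.2%.

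The next 4 peaks by reads were of intermediate strength, and none of them passed the threshold. Peak 15 held 168 reads in the knockout against 211 in wild type (ratio 0.33). Peak 3 held 183 reads in the knockout against 191 in wild type (ratio 0.06). Peak 17 held 158 reads in the knockout against 209 in wild type (ratio 0.39), and peak 20 held 138 in the knockout against 118 in wild type (ratio -0.23). The direction thus differed among the best-read contacts, with small ratios in each. Over the 9 peaks other than peak 4 with at least 100 reads, the ratios lay between -0.68 and 0.79. For comparison, 5% of all 1403 peaks with that many reads had ratios below -1.05 and 5% above 0.93.

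Peak 4 was the exception. It lies at positions 188 to 214 of the 3' UTR, chr12:73945885-73945923 with its flanks, and held 8.85 scaled reads in the knockout against 146 in wild type. Its log2 ratio was 3.90, and p = 1.14e-29, in the authors' deposited table (Benjamini-Hochberg adjusted p = 4.17e-26). It is the only Hif1a peak called lower in the knockout, and none was called higher. Over all peaks 0.574% were called lower and 0.0273% higher, and since the gene was chosen for this peak nothing is read from the count. By p it ranked 4 of the 84 lowered peaks, and by wild-type reads 11. Of the 1403 peaks with at least 100 reads, 18 had a ratio at least as large, peak 4 included. Peak 4 passed that read limit through its 146 wild-type reads. The gene was chosen for this peak, so these ranks are description only.

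The neighbours of peak 4 did not share its ratio. Peak 3 ends 18 nt before it, with the values given above. Peak 5 starts 17 nt after it and held 84.8 scaled reads in the knockout against 82.5 in wild type (ratio -0.04). Further downstream, peak 6 held 37.6 in the knockout against 65.9 in wild type (ratio 0.79, adjusted p = 1.00). The low reads of the knockout at peak 4 were thus bounded on both sides, within less than 20 nt, by peaks with near-equal reads.

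The loss at peak 4 was a small part of the AGO2 reads on the gene. Peak 4 held 0.187% of the Hif1a reads in the knockout against 3.41% in wild type. At the 84 lowered peaks the median share of the gene's wild-type reads was 29.8%, and 1 lowered peak had a smaller share than peak 4 of Hif1a. Without peak 4, the gene's reads summed to 4738.0 in the knockout against 4138.4 in wild type (log2 ratio -0.20). Without peak 19, they summed to 1201.8 in the knockout against 1395.6 in wild type (ratio 0.22). Without both, the sums were 1193.0 in the knockout against 1249.3 in wild type (ratio 0.07). The sign of the ratio of the summed reads therefore rests on peak 19.

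**Figure D2:**
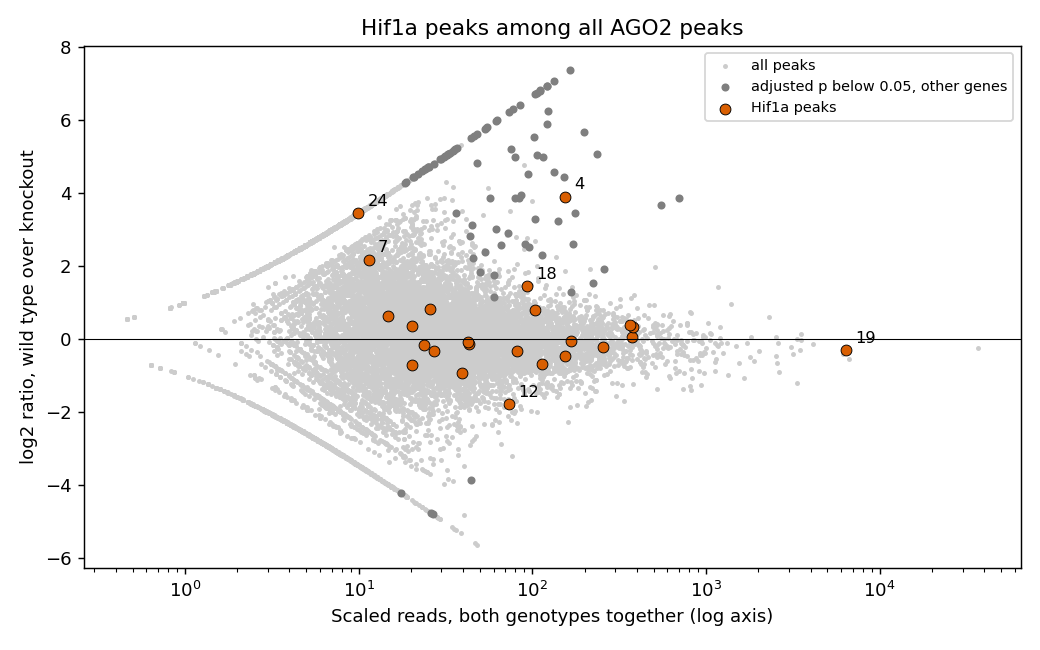
Deposited log2 ratio, wild type over knockout, against the scaled reads of both genotypes together (log axis) for all 14634 peaks (light grey), peaks of other genes with an adjusted p below 0.05 (dark grey) and the 24 Hif1a peaks (orange, some numbered). Peak 4 stands at a ratio of 3.90, peak 18 at 1.46 and peak 19 at -0.30, and peaks 7 and 24 have high ratios at few reads.

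Over the 24 peaks the median log2 ratio was -0.06 (quartiles -0.32 and 0.68), against 0.20 over all peaks (quartiles -0.61 and 1.33). Reads were lower in the knockout at 11 peaks and higher at 13, and 56.4% of all peaks were lower in the knockout. Besides peak 4, 1 peak had an unadjusted p below 0.05; over all peaks 4.20% did. This was peak 12, with 57.2 scaled reads in the knockout against 16.1 in wild type (ratio -1.77, p = 0.0245, adjusted p = 0.878). The 9 peaks with fewer than 40 reads (9.95 to 39.2) ranged from -0.93 to 3.45. Peak 21, at the low end, held 26 reads in the knockout against 13.2 in wild type. At the high end, peak 24 was listed at 0 in the knockout, and wild type held 9.95 reads, and peak 7 held 1.44 in the knockout against 10 in wild type (ratio 2.18). Their adjusted p was 1.00 each, and at so few reads the ratio depends on the pseudocount of 1.

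The match of peak 4 to the miR-155 seed is short. It is a 6mer-A1, in which the 5 bases facing miR-155 positions 2 to 6 pair and an A faces position 1. Against the full 8-nt site it differs by A8T and G7T, with positions counted by the miR-155 base they face. The predicted duplex (RNAduplex energy model) pairs 19 bases of miR-155 in all, 5 of them in the seed, with no G-U pair. These are positions 1 to 6, then 9 to 16, then 18 to 22, the last of them where the run of G near the microRNA's 3' end meets the run of C at the start of the line for peak 4 above. Its energy of -14.9 kcal/mol was the lowest of the 24 Hif1a peaks (highest -5.4, median -9.1). Of all peaks, 4.43% had an energy as low. The median was -9.4 over all peaks, whose sequences are longer (median 51 nt, against 39 nt for peak 4), and -12.3 over the 84 lowered ones. Of the lowered peaks, 22 reached the energy of peak 4, that peak included.

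A low predicted energy did not by itself go with fewer reads in the knockout among the Hif1a peaks. Peaks 12 and 17 had the next lowest energies, -13.8 kcal/mol each, and ratios of -1.77 and 0.39. In both, G-U pairs made up part of the duplex, 6 in peak 12 and 5 in peak 17. Peak 5, at -12.7 kcal/mol, had a ratio of -0.04. These energies leave out the protein and the folding of the 3' UTR itself.

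**Figure D3:**
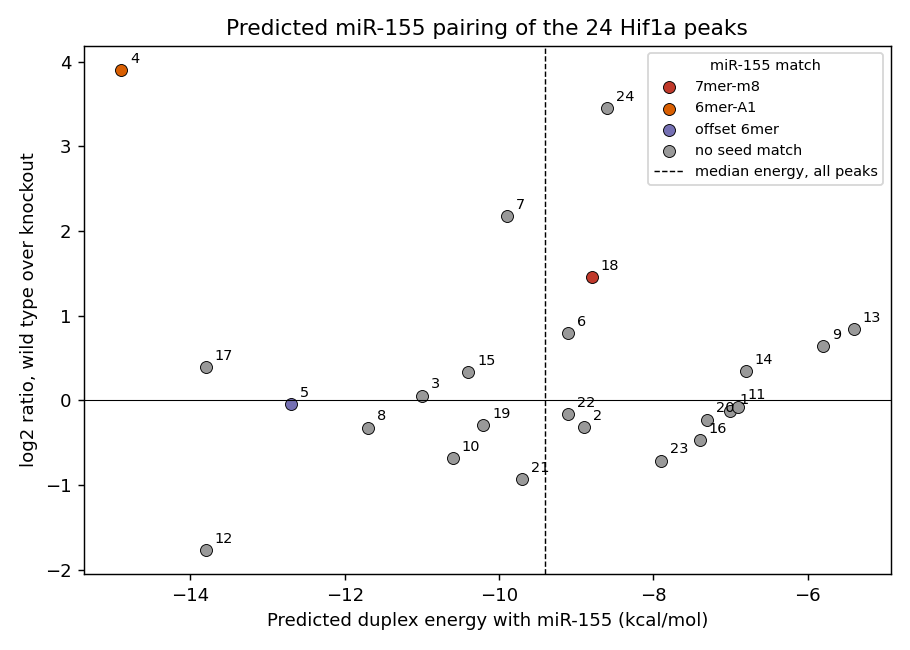
Deposited log2 ratio, wild type over knockout, against the predicted energy of the duplex with miR-155 (kcal/mol, lower is stronger) for the 24 Hif1a peaks, numbered and coloured by their match to the miR-155 seed; the dashed line is the median energy of all peaks, -9.4. Peak 4 is alone at the top left, with -14.9 kcal/mol and a ratio of 3.90, while peaks 12 and 17, both at -13.8, have ratios of -1.77 and 0.39. Each energy is the lowest found anywhere in the peak sequence and need not belong to the seed match, as at peak 18.

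The only 7-nt miR-155 match of the 3' UTR lay in peak 18, and there the difference was smaller. The match is a 7mer-m8, in which all of the seed pairs, and it differs from the full site by A1T. Peak 18 held 24.5 scaled reads in the knockout against 69.3 in wild type, and the authors' deposited table gives it a ratio of 1.46 (p = 0.0586, adjusted p = 1.00). The lowest-energy duplex found anywhere in peak 18 had -8.8 kcal/mol, an energy that 59.4% of all peaks reached. It paired miR-155 positions 4 to 6 and 10 to 19, and so 3 of the 7 seed bases. It is therefore not the full seed pairing of the 7mer-m8, for which no separate energy was computed. Across the table, 47 peaks had a 7mer-m8 as their longest match and at least 17.6 reads, the number at the least-read called peak. Their median ratio was 2.96, and 14 of them (29.8%) had a ratio no larger than that of peak 18, itself included. Of these 47 peaks 36.2% were called lower. The read minimum leaves out only uncalled peaks and so raises this share. Without it, 17 of 94 such peaks were called lower, and the median ratio was 2.98.

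Other near matches to the seed lay at peaks with ratios in both directions. An offset 6mer, in which bases facing positions 3 to 8 match, lies at positions 265 to 270, wholly in the 6-nt flank after peak 5, which held 84.8 reads in the knockout against 82.5 in wild type. Peak 8 matched 7 of the 8 letters of the full site, the exception being T4G in the middle of the seed match. It held 15.2 reads in the knockout against 12 in wild type (ratio -0.32). Peaks 10, 11, 12, 14 and 19 matched 6 of the 8 letters, as many as peak 4, and had ratios of -1.77 (peak 12) to 0.35 (peak 14). In each of them a letter facing position 2, 3 or 4 differed, whereas peak 4 differs only at positions 7 and 8. The predicted duplex of peak 12 paired all 7 seed bases, but peak 12 holds no exact miR-155 seed match. That seed pairing therefore includes G-U pairs, and it lies at another place than the 6 matching letters. One more 6mer-A1, at positions 1692 to 1697 of the 3' UTR, lay in no peak.

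Most other peaks with the same seed letters as peak 4 were not called. Its 7 letters at the place of a 7mer-A1 occurred in 76 peaks of the table, and 30 of these had at least 17.6 reads. The median ratio of the 30 was 0.28, and 2 were called lower in the knockout, peak 4 of Hif1a and peak 1 of Wnk1, which encodes a kinase that controls ion transport. Peak 4 supplied the letters, so its own call says nothing about the set. Over all peaks, without a read minimum, 0.574% were called lower. Peaks with a longer miR-155 match elsewhere were not left out, and among the 76 peaks, peak 5 of 2700078E11Rik holds a 7mer-m8. The Wnk1 peak held 2.23 scaled reads in the knockout against 105 in wild type (ratio 5.03), with a predicted duplex energy of -12.1 kcal/mol. The other 28 peaks had ratios of -1.48 to 2.11 (median 0.26). The 30 peaks had a median energy of -9.2 kcal/mol, and 2 of them were at or below that of Hif1a peak 4, itself included. By contrast, the 59 peaks with a full 7mer-A1 and as many reads had a median ratio of 2.58, and 35.6% were called lower. Set at the least-read called peak, the read minimum leaves out only uncalled peaks and so raises the called shares. A peak with almost no knockout reads passes it through wild type alone. Without the minimum, 2 of 76 peaks with the 7 letters and 21 of 104 with a 7mer-A1 were called lower. The median ratios were then 0.75 and 2.67.

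**Figure D4:**
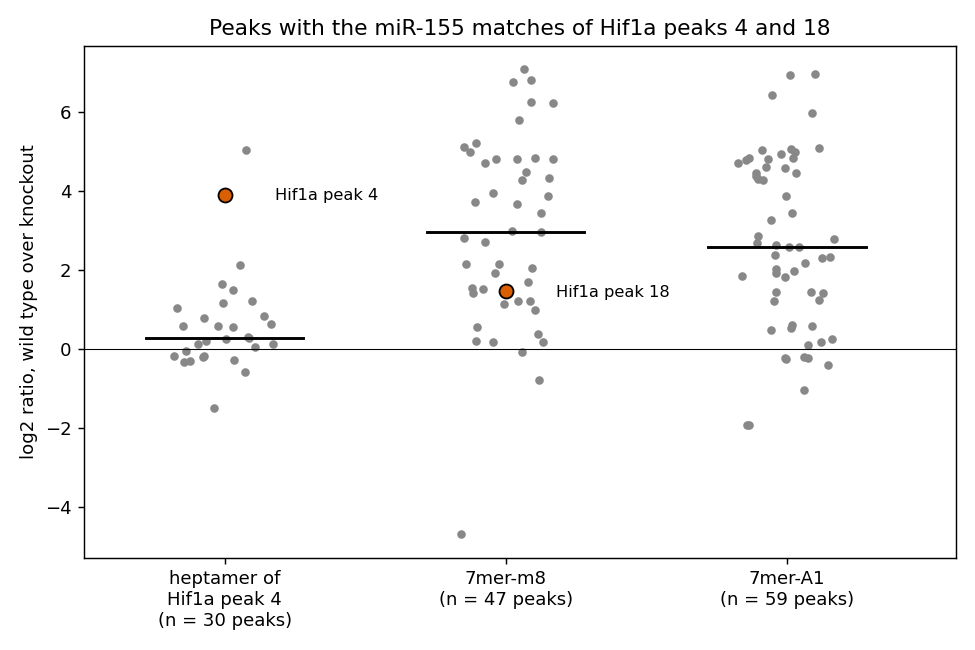
Deposited log2 ratio, wild type over knockout, of peaks with at least 17.6 scaled reads that hold the 7 letters of Hif1a peak 4 (30 peaks), a miR-155 7mer-m8 (47 peaks) or a 7mer-A1 (59 peaks); each point is a peak, the bar is the median, and sideways spread is only for visibility. Hif1a peak 4 lies far above the median of its set (0.28), and Hif1a peak 18 below that of its set (2.96).

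Sites of other microRNA families were spread thinly over the Hif1a peaks. The search covered 38 families besides miR-155, named for T cells or for the hypoxia response, for matches of 7 or 8 nt in the peak with its 6-nt flanks. A match was present in 6 of the 24 peaks (47.4% of all peaks held one), or in 7 with the miR-155 site of peak 18 (48.6% of all peaks), and no Hif1a peak held an 8-nt match. Families of let-7, miR-15/16, miR-21, miR-29 and the hypoxia-induced miR-210 had no 7-nt match in any Hif1a peak.

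The families present belonged to peaks of different strength. Peak 17 held the 7mer-m8 of miR-17-5p and its relatives, a family that supports lymphocyte growth and that 3.71% of all peaks matched. Peak 10 held matches of miR-19-3p and miR-186-5p, with 70.4 scaled reads in the knockout against 43.6 in wild type (ratio -0.68). Peak 16 held one of miR-101-3p, with 90.1 in the knockout against 64.9 in wild type (ratio -0.47). Peak 2 held a 7mer-m8 of miR-199-5p, a family described as a regulator of Hif1a in heart muscle, with 45.2 in the knockout against 36.1 in wild type (ratio -0.31). Peak 11, with a match of miR-25-3p and its relatives, held 21.8 in the knockout against 20.6 in wild type. Peak 13, with miR-142-5p and miR-186-5p, held 8.93 in the knockout against 16.8 in wild type. None of these peaks passed the threshold.

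Within its 6-nt flanks, the most heavily read contact had no 7-nt match to any of the 39 families, miR-155 included. Among the 50 most-read peaks of the table, 35 held one within the same limits. Peak 19 held 3 shorter matches: an offset 6mer of miR-142-3p, which is specific to blood cells, a 6mer of miR-140-3p and a 6mer-A1 of miR-101-3p, which runs into the flank. A 7-nt match to the whole miR-101-3p seed starts in that flank and ends past it, so the search did not count it. It forms the last 7 letters of the line for peak 19 below, up to chr12:73946855, whereas the searched sequence ended at chr12:73946853. Against the full site of miR-142-3p, peak 19 differs by C2A and A1C. The sequences are shown because this place carries most of the gene's reads; capitals mark the seed (RefSeq, GRCm38.p6) and the match on GRCm38, with the miR-17 site of peak 17 beside them.
miR-142a-3p: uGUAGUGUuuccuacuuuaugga
peak 19, offset 6mer, chr12:73946828-73946855: tggttgggtctaACACTAactgtactgt
miR-17-5p: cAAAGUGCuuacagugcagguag
peak 17, 7mer-m8, chr12:73946666-73946692: gtttggttttatGCACTTTgtcgctat

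Poly(A) signals and AU-rich elements of 3' UTRs were also searched, on the sense strand only. The poly(A) signal hexamer AATAAA occurs at positions 1165 and 1801 of the 3' UTR and in no Hif1a peak (9.57% of all peaks hold it). Peak 19 ends 21 nt before the first of these. The 19 peaks upstream of that hexamer held 4558 scaled reads in the knockout against 4125 in wild type, and the 5 peaks downstream held 189 in the knockout against 159 in wild type. Where transcripts end in these cells was not measured. The AU-rich pentamer ATTTA, which is bound by proteins that control mRNA decay, occurs 8 times in the 3' UTR and in 3 of the 24 peaks, numbers 6, 11 and 14 (11.6% of all peaks).

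The genes most like Hif1a in summed AGO2 reads were sought among those with 15 or more peaks, by the distance in the log2 sums of both genotypes, over 2 pooled values and not per length. They were Cdkn1b, a cell cycle inhibitor gene (distance 0.66), Btg2, which restrains proliferation (0.72), Il2ra, the IL-2 receptor alpha chain (1.26), Bach2, a repressor of effector programmes (1.42), and Cblb, a ubiquitin ligase gene (1.55). The log2 ratio of the sums, wild type over knockout, was -0.05 for Cdkn1b, -0.31 for Btg2, -0.77 for Il2ra, -0.14 for Bach2 and -0.26 for Cblb, against -0.15 for Hif1a. None of these 5 had a lowered peak, and 13 of the 131 genes with 15 or more peaks had one. The share of the most-read peak was 74.9% in Cblb and 62.8% in Cdkn1b, nearest to the 71.2% of Hif1a.

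Among 81 other genes of the HIF-1 pathway listed here, 55 had AGO2 peaks, 259 in all. One of the 55 had a peak called lower in the knockout and none had one called higher. Over all genes 1.90% had a lowered peak and 0.096% a raised one. The counts are near these shares, so nothing is read from them, nor from those of the groups below. The median log2 ratio of these peaks was 0.11, against 0.20 over all peaks. The called gene was Rheb, the GTPase that activates mTORC1 upstream of Hif1a translation, with 12.6 scaled reads in the knockout against 128 in wild type at its peak 1, a miR-155 7mer-A1 (ratio 3.25, adjusted p = 4.57e-07).

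Regulators of HIF-1 alpha stability had peaks in 11 of 14 genes, with no call in either direction. Egln3, a prolyl hydroxylase gene that HIF-1 itself induces, held 269 scaled reads in the knockout against 342 in wild type. Hif1an, the asparaginyl hydroxylase that blocks coactivator binding, held 39.7 in the knockout against 70.9 in wild type. Cul2, the scaffold of the VHL ligase, held 39.5 in the knockout against 61 in wild type, and Vhl itself 3.68 in the knockout against 7.30 in wild type. The 37 peaks of this group had a median ratio of 0.59, against 0.20 over all peaks; the medians were 0.00 for partners, -0.06 for upstream regulators, 0.08 for glycolytic genes and 0.19 for other targets.

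Partners and upstream regulators were likewise without calls, apart from Rheb. Of 12 partner genes 8 had peaks. Stat3, a transcription factor of cytokine signalling, held 465 reads in the knockout against 476 in wild type. Cited2, which competes with HIF-1 for its coactivators, held 41.2 in the knockout against 75 in wild type, and Hif3a, a relative of Hif1a, held 66.6 in the knockout against 20.5 in wild type. Upstream, 6 of 14 genes had peaks. Rictor, a subunit of mTORC2, held 881 in the knockout against 711 in wild type.

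Targets of HIF-1 had no called peak. Over all genes 1.90% had a lowered peak, so nothing is read from this count. Among 19 genes of glucose uptake and glycolysis, 17 had peaks. The glycolytic enzyme gene Aldoa held 1668 scaled reads in the knockout against 1847 in wild type. The glucose transporter gene Slc2a3 held 1545 in the knockout against 1433 in wild type. Pdk1, a kinase that inhibits pyruvate dehydrogenase, held 291 in the knockout against 370 in wild type. Among 22 other targets and T cell genes tied to HIF-1, 13 had peaks. Ddit4, an inhibitor of mTORC1, held 724 in the knockout against 645 in wild type, and the cytokine gene Ifng 331 in the knockout against 358 in wild type. AGO2 reads on a 3' UTR depend on how much of the transcript is present as well as on binding, and transcript levels are not analysed here.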

How the data were processed

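AGO2 HITS-CLIP libraries of activated CD4+ T cells (12 miR-155 knockout, 12 wild type) were made, per the labels' protocols, with primers carrying a degenerate barcode. Reads were processed with Bowtie 0.12.7 and mm9, per the submitters' processing notes. The peak caller, read scaling, duplicate removal and test behind the p-values were not given in the sources used here. In the table, per the file headers, the deposited log2 values are pooled reads per genotype and their ratio, and the deposited p-value is for differential binding.

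Scaled reads were computed as 2 to the power of the value, minus 1. Benjamini-Hochberg adjustment of the p-values ran over every peak. Peak sequences were searched for seed matches of RefSeq microRNAs (39 of 40 listed families, without miR-150-5p) and paired with miR-155 by RNAduplex of ViennaRNA 2.7.2, and were matched exactly to GENCODE M21. Python 3.11.15 with pandas 2.3.3 was used; the adjustment and the site search were tested on simulated data. Peaks given in full are the 8 most read, the 3 with the smallest p and those with a miR-155 match; peaks 2, 6, 7, 8, 10, 11, 13, 21 and 24 were added after their values were seen, as was Vhl among the pathway genes, otherwise those with a called peak or the 3 most read per group, of which 2 are not reported here. The members and lists were chosen with earlier results of these data known. Alternatives were other thresholds and adjustments, a read minimum, no pseudocount, centring and other site lengths. With pooled values no test across libraries, no linker term and no counting interval could be computed.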

Additional observations from a re-analysis of the deposited data

How the results depend on the processing

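The count of Hif1a peaks called lower (1) and higher (0) in the knockout did not change at adjusted p thresholds of 0.01 and 0.1, with a Bonferroni adjustment or over peaks with at least 10 scaled reads. Nor did the counts of HIF-1 pathway genes (1 and 0) under the same alternatives, which were added for these genes after the data were seen. The log2 ratio of the summed Hif1a reads, wild type over knockout, was -0.15 and became 0.22 without the most-read peak and, in an alternative added after seeing the data, 0.07 without that peak and peak 4. The median ratio of the peaks moved from -0.06 to -0.25 when centred on the median of all peaks. The count of peaks with a microRNA site, miR-155 included, went from 7 to 12 with 6-nt matches and to 0 with 8-nt matches only. Of 20 alternatives for single peaks, 11 moved the ratio by less than 0.1 or left the call of peak 4 as it was, and 9, all by centring, shifted it further; centring turned the sign of the uncalled peak 3, from 0.06 to -0.14. None reversed a called value. No paired analysis was possible because the table pools the libraries of each genotype; for the same reason leaving out single libraries was not run. Depth per library is unknown, so ratios of peaks with few reads have no stated precision.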
